A study of Mus musculus with 20 samples.

Results

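The genes described here are 40 mouse genes of the amino acid and endoplasmic reticulum (ER) stress responses, followed over 24 h of IKZF1 induction in pre-B cells. They were chosen by name, as ATF4 and its target genes, the enzymes and transporters of amino acid supply, and the sensors, chaperones and degradation factors of the unfolded protein response. All 40 symbols were found among the 56239 mouse Ensembl identifiers counted, each with 1 identifier except Ddit3, which had 2. Of the 40, 38 reached 10 counts in 2 or more libraries and were tested, as were 16601 genes in all. The cells were B3, a mouse pre-B line transduced by retrovirus with IKZF1 (Ikaros) fused to the ERt2 domain, which 4-hydroxytamoxifen (4-OHT) carries into the nucleus. Every library, the 0 h controls included, came from these IKZF1-ERt2 cells. The 0 h cells received no 4-OHT, and the other cells received 500 nM 4-OHT for 30 min or for 1, 2, 6, 12, 15, 18, 21 or 24 h. Each of the 10 time points had 2 libraries of chromatin-associated RNA, a fraction enriched for transcripts still being made. No cells that received 4-OHT without the fusion were analysed here, so effects of the drug, of time in culture and of nuclear IKZF1 cannot be told apart.

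When amino acids run short or unfolded protein collects in the ER, kinases phosphorylate the translation factor eIF2, general protein synthesis slows, and the mRNA of ATF4 is translated more. ATF4 then switches on genes that make, import and save amino acids, together with feedback regulators such as TRIB3 and CHAC1. In parallel, ATF6 and the spliced form of XBP1 switch on ER chaperones and the machinery that clears misfolded protein, a programme best known from plasma cells, the antibody-secreting descendants of pre-B cells. ATF4 is controlled largely at translation and XBP1 by splicing, so the RNA level of either gene, as counted here, is not a measure of its activity.

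The 20 libraries held 33296158 to 46868954 counts in genes, with a median of 40943260. Replicates lay close together at most time points, but the chi-square per degree of freedom between replicates was 13.3 at 12 h and 20.5 at 18 h, against 1.33 to 6.11 at the other time points. With the 12 h and 18 h libraries left out of the fit, the numbers of genes called at each other time point, given below, were the same. The labels do not say whether the replicates were separate cultures, so the p-values measure only the spread between these libraries. The sample descriptions of the 0 h pair differ in form from the others and leave it unclear whether these libraries, on which every comparison with 0 h rests, came from 1 culture or 2. The summed level of 10 pre-B marker genes was 8306 to 16500 CPM (counts scaled to a common library size), with Ebf1 holding the most counts. Of the 10, 9 were detected, and at 24 h 6 were called higher and 2 lower (all genes 20% and 20.1%). Their log2 fold changes at 24 h ran from -7.42 for Igll1 to 4.35 for Blnk. Rag1 was at 0, but a gene of its own strand covers it wholly, so this cannot be read as a lack of expression. The 3 plasma cell markers summed to 0.298 to 14.3 CPM, with Jchain called higher from 2 h on (log2 fold change 1.06 at 1 h, 2.20 at 2 h, 3.43 at 6 h and 5.10 at 24 h). Sdc1 and Prdm1 held only 71 and 103 counts over all libraries and were not tested, so Jchain alone does not stand for the cell type. T cell, erythroid and fibroblast markers reached at most 0.705 CPM, and the 4 myeloid markers summed to 0.194 to 1.62 CPM, with Csf1r called lower from 15 h (-1.52 at 24 h). Their part in the results below was not tested. The level of Ikzf1 differed from 0 h by a log2 fold change of 0.04 at 30 min and 0.86 at 24 h, and passed the threshold at no time point, although the counts do not separate the introduced gene from the cells' own.

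At 1 h 10 of 23 genes of ATF4 signalling and amino acid supply fell and 5 of 9 ER chaperones rose. At 6 h neither group held a fall past 2-fold, and by 24 h 18 of the 23 and 4 of the chaperones had fallen. A gene was called when edgeR's quasi-likelihood test gave a Benjamini-Hochberg adjusted p under 0.01 and a fold change over 2. At 30 min 1 of the 38 genes rose and 0 fell (by edgeR and by DESeq2), against 0.0542% and 0.41% of the 16601 genes tested. Without the fold threshold 8 were lower and 2 higher at an adjusted p under 0.01 (787 and 614 of all genes). At an unadjusted p under 0.05, 12 were lower. At 1 h 6 rose and 10 fell (all genes 2.33% and 4.84%), and at 2 h 7 rose and 9 fell (6.25% and 6.91%). At 6 h 3 rose and 0 fell by either tool (22 lower at an unadjusted p under 0.05), while 10.9% of all genes rose and 9.13% fell. This was not a full return to the 0 h level. Without the fold threshold 21 of the 38 were lower and 10 higher at an adjusted p under 0.01 (4526 and 4979 of all 16601 genes). Without replicate 1 of 0 h, Atf5 was also called lower at 6 h (-1.02 on the log2 scale). At 12 h 2 rose and 17 fell (13.2% and 9.92%). The same totals, 2 and 17, were found at 15 h (15.3% and 13.1%) and 18 h (19.1% and 17.6%). At 21 h 1 rose and 19 fell (20.1% and 19.4%), and at 24 h 1 rose and 22 fell (20% and 20.1%). Over the whole time course 30 of the 38 changed, against 51.9% of all genes. These comparisons share the 0 h libraries. The median log2 fold change of the 38 genes stood at -0.49 (1 h), -0.51 (2 h), -0.28 (6 h) and -1.22 (24 h), where the median of all genes tested lay between -0.011 and 0.026 at every time point. Values are relative to the whole of each library, and in bulk RNA fewer cells making a transcript and less of it per cell cannot be told apart.

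**Figure D1:**
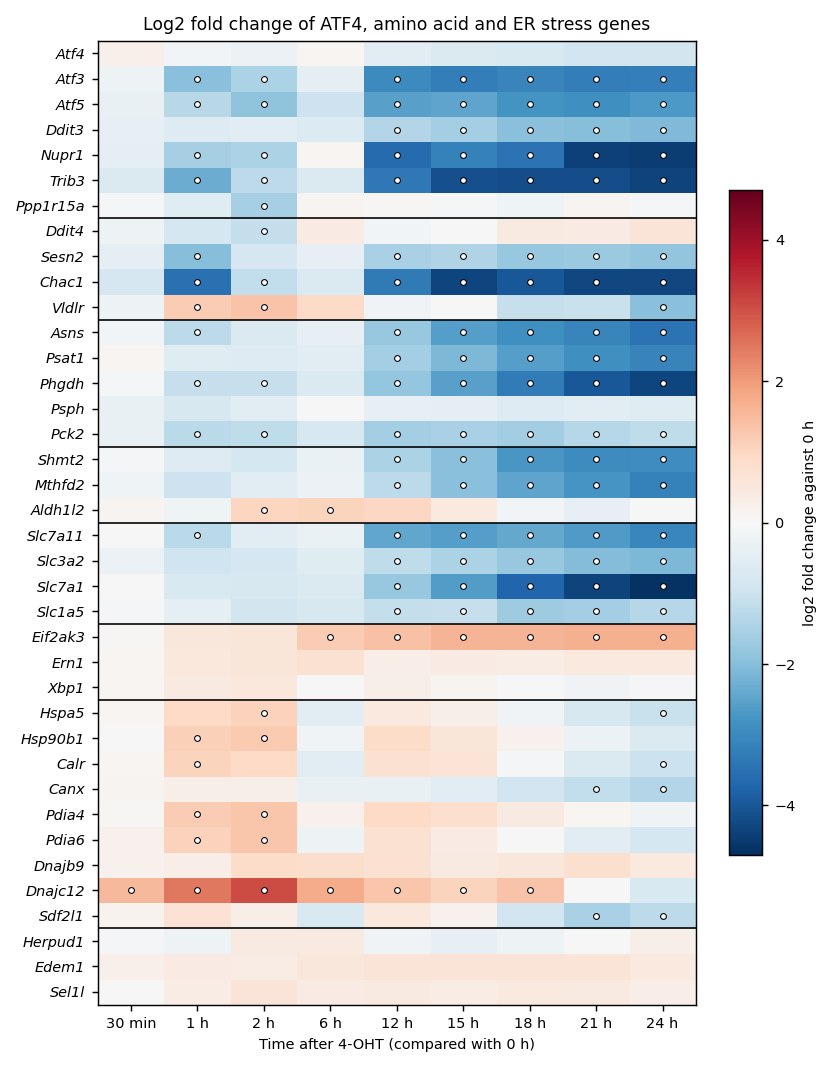
Log2 fold change against 0 h (colour) of the 38 genes with enough counts (rows, grouped by role, with black lines between roles) at each time after 4-OHT (columns), from both libraries of each time point. White dots mark calls: the upper 5 roles, of ATF4 and amino acid supply, hold most of the falls at 1 to 2 h and from 12 h, and the chaperones hold most of the rises at 1 to 2 h.

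**Figure D2:**
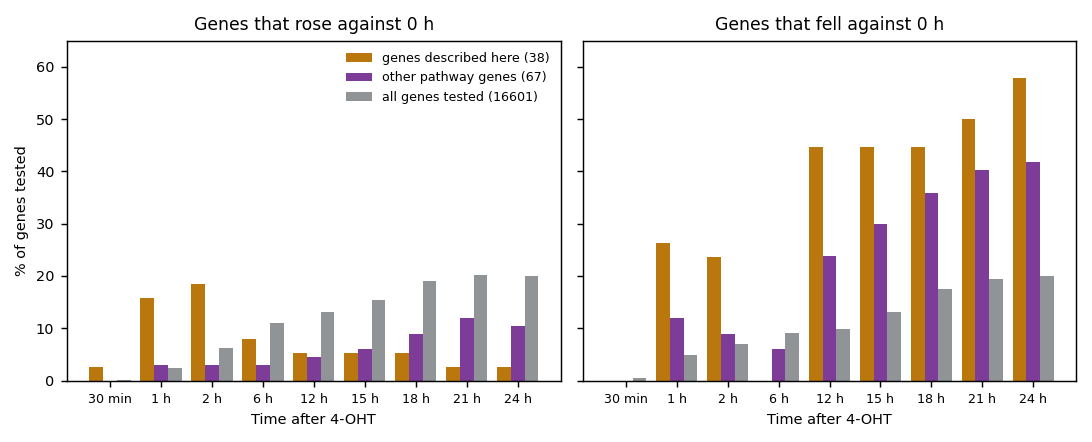
Percent of genes (vertical axis) that rose, left, or fell, right, against 0 h at each time after 4-OHT, for the 38 genes described here, 67 other genes of the same pathways and all 16601 genes tested. The share of the 38 that fell lies above that of all genes at 1 h, 2 h and from 12 h, and none fell at 6 h.

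ATF4, which drives the amino acid response, was itself not called at any time point. Its level in replicates 1 and 2 was 29.8 and 31.7 (0 h), 36.5 and 35.3 (30 min), 24.4 and 25.8 (2 h), and 32.8 and 32.2 (6 h) CPM. Later it was lower, with 22.9 and 20.1 (12 h), 18.8 and 14.8 (21 h), and 17.3 and 16.3 (24 h) CPM, with both libraries of every time point from 12 h below both 0 h libraries. On the log2 scale Atf4 differed from 0 h by -0.29 ± 0.075 (SE) at 2 h (adjusted p 0.00235) and by -0.87 ± 0.080 at 24 h (adjusted p 1.92e-09), short of 2-fold. The call depended on the scaling. With library totals in place of TMM factors, which moved the median of all genes by -0.257 at 24 h, the log2 fold change of Atf4 was -1.13 at 24 h and passed the threshold. At 21 h it was -0.88 ± 0.081, and -1.05 and past the threshold without replicate 1 of 21 h.

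Of the 7 transcription factors and feedback regulators with enough counts, 4 fell at 1 h, 5 at 2 h, none at 6 h and 5 at every time point from 12 h. Of all genes tested 4.84% fell at 1 h, 6.91% at 2 h, 9.13% at 6 h and 9.92% to 20.1% from 12 h. Trib3, a pseudokinase that restrains ATF4, stood at 12.9 and 12.4 (0 h), 2.54 and 2.48 (1 h), and 7.75 and 8.21 (6 h) CPM before it reached 1.15 and 1.32 (12 h), and 0.596 and 0.624 (24 h) CPM. Its log2 fold change was -2.33 ± 0.10 at 1 h, -1.22 ± 0.087 at 2 h (adjusted p 9.65e-11) and -4.37 ± 0.14 at 24 h (adjusted p 1.51e-17), a 20.6-fold fall. All libraries of these later time points lay below both 0 h libraries, with 6 h between 0 h and 1 h. Atf3, a stress-induced factor of the ATF family, had a like course, with 8.19 and 7.34 (0 h), 1.99 and 1.99 (1 h), 5.51 and 5.67 (6 h), and 0.835 and 0.841 (24 h) CPM. Relative to 0 h it stood at -1.498 ± 0.11 on the log2 scale at 2 h and -3.21 ± 0.15 at 24 h, with adjusted p-values of 2.02e-10 and 1.32e-14. Atf5, a close relative of ATF4, had the largest early fall of the 38 genes at 2 h, with 8.34 and 9.07 (0 h), and 2.27 and 2.38 (2 h) CPM. This was -1.90 ± 0.11 on the log2 scale (adjusted p 4.41e-12). At 24 h it was at 1.61 and 1.11 CPM, a log2 fold change of -2.68 ± 0.13, and 87.0% of the gene is free of other genes.

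Ddit3, which encodes the stress factor CHOP, was no higher at 6 h than at 1 h. Its level was 24.0 and 23.5 (0 h), 15.9 and 15.7 (1 h), and 15.7 and 14.5 (6 h) CPM, and later 8.60 and 9.67 (12 h), and 5.40 and 5.86 (24 h) CPM, with no overlap between 0 h and any of these. Ddit3 had a log2 fold change of -0.50 ± 0.067 at 2 h, not called, and -2.07 ± 0.080 at 24 h (adjusted p 5.19e-16), a 4.21-fold fall. Ddit3 lies at chr10:127290774-127296288 (GRCm38, plus strand), where 45.5% of it is free of other annotated genes. On its own strand 2590 of its 5515 bases are free of a second Ddit3 identifier, which had 0 counts. On the other strand, where Gm4189 and Mars1 overlap it, 5432 bases are free. Nupr1, a small stress-induced chromatin protein, was scarce, with 0.778 and 0.608 (0 h), 0.209 and 0.278 (2 h), and 0.677 and 0.798 (6 h) CPM. Its log2 fold change was -1.49 ± 0.30 at 2 h (adjusted p 0.000221 by edgeR, 0.0178 by DESeq2, so not called there) and -4.47 ± 0.51 at 24 h (adjusted p 5.88e-08). At 24 h each library held 1 count, against 63 over both 0 h libraries, a ratio of 0.0409 with an exact 95% counting interval of 0.00485 to 0.154. Ppp1r15a (GADD34), the phosphatase subunit that reverses eIF2 phosphorylation, fell at 2 h alone, with 1.12 and 1.22 (0 h), 0.391 and 0.393 (2 h), 1.21 and 1.32 (6 h), and 1.01 and 1.22 (24 h) CPM. Against 0 h its log2 fold change was -1.57 ± 0.24 at 2 h (adjusted p 8.09e-06) and -0.06 ± 0.19 at 24 h.

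**Figure D3:**
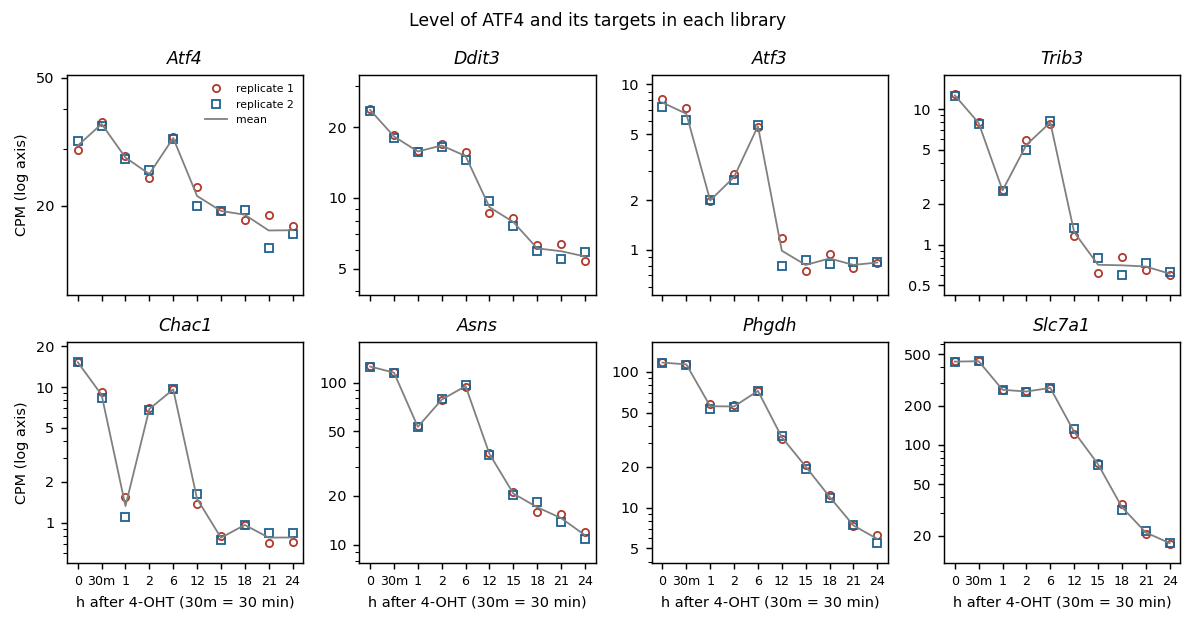
Level in CPM (log axis) of Atf4, Ddit3, Atf3, Trib3, Chac1, Asns, Phgdh and Slc7a1 in each library (circles replicate 1, squares replicate 2, line the mean of both) against the time after 4-OHT, time points evenly spaced. Trib3, Chac1 and Asns dip at 1 h and recover in part by 6 h before the late fall, whereas Atf4 stays between 14.8 and 36.5 CPM.

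Among the further targets, Chac1, which breaks down glutathione, had the deepest dip at 1 h. Its level was 15.2 and 15.4 (0 h), 9.21 and 8.33 (30 min), and 1.55 and 1.11 (1 h) CPM, then 7.02 and 6.78 (2 h), and 9.62 and 9.64 (6 h) CPM, and finally 1.38 and 1.62 (12 h), 0.798 and 0.752 (15 h), and 0.716 and 0.841 (24 h) CPM. Both 6 h libraries lay between those of 0 h and 1 h. The fall was 11.3-fold at 1 h (log2 fold change -3.50 ± 0.11, adjusted p 1.61e-16) and 19.5-fold at 24 h (-4.28 ± 0.13, adjusted p 4.57e-18). Between 1 h and 6 h it rose 7.14-fold. Sesn2, a leucine sensor that restrains mTORC1, fell 3.96-fold at 1 h and 3.65-fold at 24 h, and rose 3.07-fold between 1 h and 6 h. Ddit4 (REDD1), another brake on mTORC1, fell at 2 h only (log2 fold change -1.12) and had a value of 0.61 at 24 h. Vldlr, a lipoprotein receptor, went the other way early, with 0.259 and 0.315 (0 h), 0.679 and 0.764 (2 h), and 0.0596 and 0.0814 (24 h) CPM. It rose at 2 h (log2 fold change 1.33 ± 0.28, adjusted p 0.000389) and fell at 24 h (-1.97 ± 0.51, adjusted p 0.00161). Both Vldlr calls rested on few counts, 26 over both libraries at 0 h and 5 at 24 h (ratio 0.248, exact 95% counting interval 0.0743 to 0.656), and both were lost with DESeq2 (adjusted p 0.0176 each). Without replicate 2 of 0 h, replicate 1 of 24 h or replicate 2 of 24 h the adjusted p at 24 h was 0.0145, 0.0222 or 0.0113.

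Among the enzymes of amino acid synthesis, 3 of 5 fell at 1 h, 2 at 2 h, none at 6 h and 4 from 12 h on (all genes 4.84%, 6.91%, 9.13%, and 9.92% to 20.1%). Asns, asparagine synthetase and a standard readout of ATF4, was at 127 and 124 (0 h), 53.7 and 53.0 (1 h), 78.3 and 78.8 (2 h), and 94.0 and 96.3 (6 h) CPM. After 6 h its level was lower in each successive pair, with 36.6 and 36.0 (12 h), 21.2 and 20.2 (15 h), 15.8 and 18.3 (18 h), 15.4 and 13.8 (21 h), and 12.0 and 10.9 (24 h) CPM. Its log2 fold change against 0 h was -1.24 ± 0.052 at 1 h, -0.68 ± 0.051 at 2 h, under 2-fold, and -3.46 ± 0.063 at 24 h (adjusted p 1.21e-21), an 11.0-fold fall. Phgdh, which opens serine synthesis from glucose, fell 2.10-fold at 2 h and 19.9-fold at 24 h, with 118 and 115 (0 h), 72.4 and 71.9 (6 h), and 6.23 and 5.51 (24 h) CPM. At 24 h its log2 fold change was -4.31 ± 0.065 (adjusted p 6.19e-23). Psat1, the next enzyme of that route, was under 2-fold lower until 6 h and fell 8.78-fold at 24 h, while Psph, the last step, was not called at any time point (log2 fold change -0.58 at 24 h). Pck2, the mitochondrial PEP carboxykinase, differed in course, with 104 and 107 (0 h), 43.6 and 43.9 (1 h), 64.9 and 61.6 (6 h), 35.3 and 32.5 (18 h), and 45.5 and 46.4 (24 h) CPM. Both libraries of 24 h lay above both of 18 h. Its fall was 3.11-fold at 18 h and 2.30-fold at 24 h. The mitochondrial one-carbon enzymes Shmt2 and Mthfd2, which take serine's carbon toward formate, were called lower only from 12 h and fell 7.62-fold and 9.13-fold at 24 h. Aldh1l2, which oxidises the same carbon, instead rose at 2 h and 6 h (log2 fold change 1.02 and 1.03), with 5.47 and 5.36 (0 h), 11.0 and 11.2 (6 h), and 5.76 and 5.05 (24 h) CPM. Without replicate 1 of 2 h its value at 2 h was 0.996, just under the threshold.

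All 4 amino acid transporters with enough counts fell at 12 h and at every later time point (all genes 9.92% to 20.1%), and 1 fell at 1 h (4.84%). Slc7a1, the cationic amino acid carrier that imports arginine and lysine, had the largest fall of the 38 genes at 24 h. Slc7a1 stood at 440.1 and 436 (0 h), 260.3 and 255 (2 h), and 276 and 274 (6 h) CPM, then at 120.4 and 132 (12 h), 34.9 and 31.5 (18 h), and 17.4 and 17.7 (24 h) CPM, with no overlap between 0 h and any of these. The difference from 0 h was -0.76 ± 0.041 on the log2 scale at 2 h, under 2-fold, and -4.64 ± 0.052 at 24 h (adjusted p 1.29e-24). Slc7a11, the cystine importer xCT, fell 2.38-fold at 1 h and 8.41-fold at 24 h, with 70.5 and 70.1 (0 h), 29.6 and 29.5 (1 h), 55.3 and 58.0 (6 h), and 7.69 and 8.98 (24 h) CPM. Slc3a2, the heavy chain that pairs with it, and Slc1a5, a glutamine carrier, fell 4.37-fold and 2.55-fold at 24 h.

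Slc7a5, the leucine importer that also pairs with Slc3a2, and Cebpb, a C/EBP factor that dimerises with ATF4, had 0 counts in all 20 libraries. Slc7a5 lies at chr8:121881150-121907694 (minus strand), wholly within Gm20388 on the other strand, and only 39.6% of Cebpb is free of other genes. Of 742 protein-coding genes wholly covered by genes of the opposite strand, 699 (94.2%) were at 0 in every library, as were 302 of 323 (93.5%) covered on their own strand and 2167 of 11694 (18.5%) with no overlap. The 0 of Slc7a5 can therefore not be read as a lack of expression. Cebpb is covered only in part and belongs to none of these classes, so what its 0 stands for was not tested.

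To show the sequences at which ATF4 dimers are known to act, the C/EBP-ATF response element TGATGNAA was searched on both strands of 300-base promoter windows (RefSeq, GRCm38.p6, 250 bases before to 50 after the start). A window was found for 36 of the 40 genes, and 9 of these 36 (25.0%) held the element in a window. Of all 32851 windows, taken singly, 3.97% held it. The genes were chosen by name as members of the ATF4 and ER stress responses, so these shares do not test an enrichment. The element is shown for 4 genes that fell both early and late. Each stretch is 30 bases in gene orientation with the element, or its reverse complement, in capitals.
Asns chr6:7693214-7693243, minus strand: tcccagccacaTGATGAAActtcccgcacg
Chac1 chr2:119351038-119351067, plus strand: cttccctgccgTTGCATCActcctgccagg
Atf3 chr1:191183425-191183454, minus strand: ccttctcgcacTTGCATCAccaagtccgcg
Trib3 chr2:152344028-152344057, minus strand: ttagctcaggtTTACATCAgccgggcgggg
The Asns element begins 23 bases before the start, that of Chac1 193 bases and that of Atf3 110 bases before it, and the Trib3 element lies just after it. Nupr1, Pck2, Slc7a11, Vldlr and Herpud1 were the other 5 with a match, and Vldlr and Herpud1 did not share the early fall. A match describes the letters of the window and does not show that a factor was bound.

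The ER chaperones and folding enzymes ran opposite to the ATF4 targets at first. Of the 9 genes, 5 rose at 1 h and 5 at 2 h (all genes 2.33% and 6.25%). At either time 0 fell by edgeR (0 also at an unadjusted p under 0.05). Of all genes 4.84% and 6.91% fell, so 0 falls past the threshold among 9 genes lies near those shares. Hspa5 (BiP), the main ER chaperone of the HSP70 family, was at 59.5 and 61.0 (0 h), 65.2 and 64.8 (30 min), 113 and 115 (1 h), and 125 and 127 (2 h) CPM. Jchain, the only plasma cell marker with enough counts, was also called higher at 2 h (2.20 on the log2 scale), and its part was not tested. Later values of Hspa5 were 42.7 and 42.4 (6 h), 88.9 and 76.0 (12 h), and 30.2 and 28.0 (24 h) CPM, so that the 6 h and 24 h libraries lay below both 0 h libraries and the 12 h libraries above them. Its log2 fold change was 1.07 ± 0.083 at 2 h (adjusted p 3.83e-10) and -1.05 ± 0.092 at 24 h (adjusted p 7.92e-10). Between 1 h and 6 h Hspa5 fell 2.69-fold. Pdia6, a disulfide isomerase, had a like course, with 42.1 and 42.1 (0 h), 105 and 105 (2 h), 35.4 and 35.9 (6 h), 75.3 and 63.2 (12 h), and 24.5 and 22.9 (24 h) CPM. For Pdia6 the log2 fold change was 1.32 ± 0.067 at 2 h (adjusted p 3.35e-13) and -0.83 ± 0.075 at 24 h, under 2-fold but past it with library totals (-1.09). Hsp90b1 (GRP94), Pdia4 and the lectin chaperone Calr rose 2.15-fold, 2.26-fold and 2.07-fold at 1 h.

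**Figure D4:**
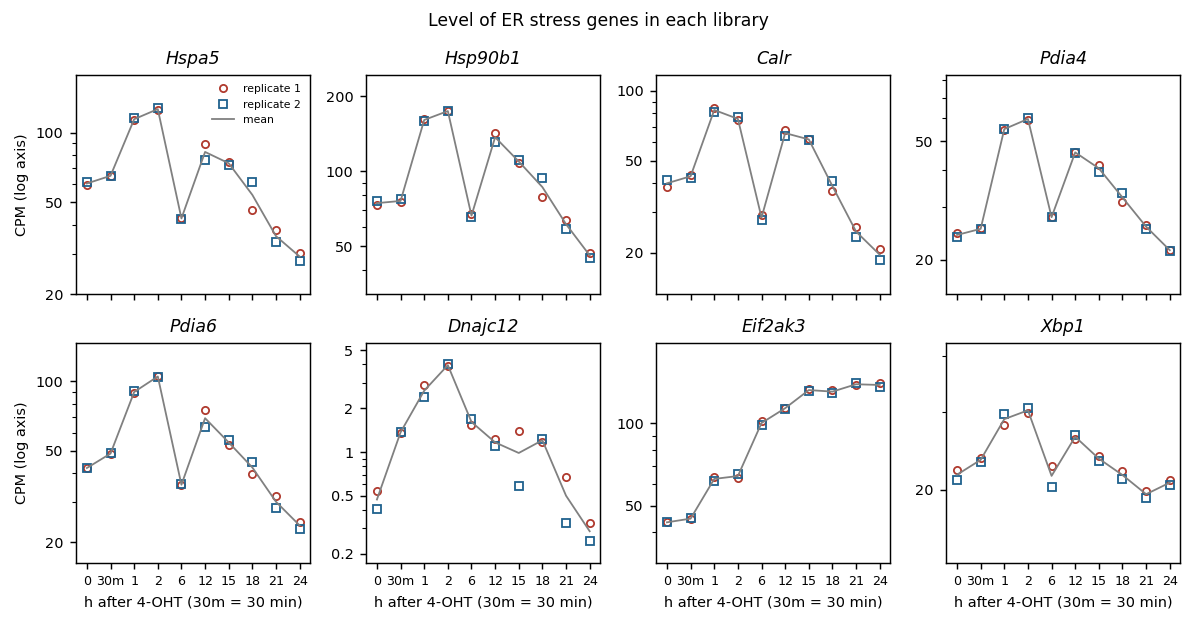
Level in CPM (log axis) of Hspa5, Hsp90b1, Calr, Pdia4, Pdia6, Dnajc12, Eif2ak3 and Xbp1 in each library (circles replicate 1, squares replicate 2, line the mean of both) against the time after 4-OHT, time points evenly spaced. The panels of Hspa5, Hsp90b1, Calr, Pdia4 and Pdia6 peak at 1 to 2 h and again, lower, at 12 h, with a trough at 6 h, whereas Dnajc12 has no such trough and Eif2ak3 climbs to 136 to 141 CPM at 24 h.

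The levels at 6 h were tested against 1 h, 12 h and 24 h, comparisons that do not use the 0 h level. The 0 h libraries still took part in the shared fit and its estimate of the spread. No test was made against 2 h, the time point just before. From 1 h to 6 h 7 of the 38 genes rose and 5 fell, against 6.68% and 4.01% of all genes. The 5 that fell were Hspa5, Hsp90b1, Calr, Pdia6 and Sdf2l1, all chaperones and their partners, by 2.42 to 2.92-fold. The 7 that rose were Atf3, Nupr1, Trib3, Ddit4, Sesn2, Chac1 and Aldh1l2, by 2.34 to 7.14-fold. From 6 h to 12 h, a comparison added after the values were seen, 3 rose and 12 fell (2.69% and 2.11%). The rises were those of Hsp90b1, Calr and Sdf2l1, by 2.06 to 2.32-fold, and the 12 falls were all of ATF4 targets and amino acid genes. Replicates of 12 h differed more than those of 6 h, with Hspa5 at 88.9 and 76.0 CPM and Calr at 67.9 and 63.7 CPM, yet no 12 h library of either overlapped 6 h. From 6 h to 24 h 0 rose by either tool (2 higher at an unadjusted p under 0.05) and 19 fell (10.9% and 12.8%).

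By 24 h 4 of the 9 chaperones had fallen (all genes 20.1%), Hspa5, Calr, Canx and Sdf2l1. Canx, the membrane-bound partner of Calr, had no early call and stood at 267 and 273 (0 h), 319.8 and 329.9 (2 h), and 101 and 108 (24 h) CPM, a 2.58-fold fall. The other 3 calls lay near the threshold. Without replicate 2 of 24 h the log2 fold change was -0.99 for Hspa5, -0.94 for Calr and -0.99 for Sdf2l1, and without replicate 2 of 0 h it was -0.98 for Calr. Dnajc12, a J-domain co-chaperone, had the largest rise of the 38 genes at 2 h. Dnajc12 was scarce, with 0.540 and 0.405 (0 h), 1.35 and 1.38 (30 min), and 3.89 and 4.03 (2 h) CPM, then 1.54 and 1.68 (6 h), and 0.328 and 0.244 (24 h) CPM, where 24 h libraries lay below both 0 h libraries. Its log2 fold change was 3.05 ± 0.24 at 2 h (adjusted p 6.41e-10) and -0.73 ± 0.46 at 24 h (adjusted p 0.153). Its rise at 30 min, 1.52 ± 0.31 (adjusted p 0.00145), was the only call at that time, and was lost without replicate 2 of 0 h (1.34, adjusted p 0.031) or without replicate 1 or 2 of 30 min (1.54 and 1.51, adjusted p 0.0109 and 0.0202). Dnajb9, a co-chaperone under XBP1 control, was not called at any time point, with 0.86 at 2 h on the log2 scale.

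The ER stress response element, bound by ATF6 with NF-Y, is the best known control sequence of these chaperones. Its letters are CCAAT, then 9 bases of any kind, then CCACG, on either strand. They stood in a window of 5 of the 8 chaperones for which one was found (62.5%). Of all windows, taken singly, 0.119% held them. The chaperones were chosen by name as genes of this response, so these shares do not test an enrichment. The 5 are shown with the element in capitals. Of these, 4 were called higher early, and Canx was higher by less than 2-fold (log2 fold change 0.27 at 1 h and at 2 h). Pdia4, called higher early too, has a window without a match.
Hspa5 chr2:34772020-34772049, plus strand: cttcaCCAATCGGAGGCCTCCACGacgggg
Hsp90b1 chr10:86705632-86705661, minus strand: caagcCCAATCGCAAGGAGCCACGcttcgg
Calr chr8:84847069-84847098, minus strand: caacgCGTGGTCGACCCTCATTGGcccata
Pdia6 chr12:17266486-17266515, plus strand: agagaCCAATGAAAGGCGGCCACGgcgtgg
Canx chr11:50325794-50325823, minus strand: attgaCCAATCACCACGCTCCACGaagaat
Hsp90b1 held a second match, 107 bases before its start. Herpud1 held the related element made of ATTGG, 1 base of any kind and CCACG, found in 0.0365% of all windows. No window of the 36 genes held the XBP1 element TGACGTGG (0.676% of all windows). These matches leave the factors' binding unmeasured.

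Of the sensors, Eif2ak3 (PERK), the ER kinase of eIF2, was the only one of the 38 genes called higher at 24 h. Its level was 43.6 and 43.5 (0 h), 63.0 and 65.5 (2 h), 102 and 98.9 (6 h), 114 and 113 (12 h), and 141 and 136 (24 h) CPM, each of these pairs above those before it. Against 0 h the log2 fold change was 0.56 ± 0.040 at 2 h, under 2-fold, 1.20 ± 0.039 at 6 h, and 1.66 ± 0.039 at 24 h (adjusted p 7.62e-20). Ern1 (IRE1), which splices the Xbp1 mRNA, differed from 0 h by less than 2-fold throughout, with its highest log2 fold change, 0.71, at 6 h. Xbp1 itself was not called, with 22.2 and 21.1 (0 h), 29.8 and 30.6 (2 h), 22.7 and 20.3 (6 h), and 21.1 and 20.5 (24 h) CPM. Its log2 fold change was 0.48 ± 0.058 at 2 h (adjusted p 3.27e-07) and -0.06 ± 0.061 at 24 h (adjusted p 0.374). The 3 genes of ER-associated degradation, Herpud1, Edem1 and Sel1l, were not called at any time point, with log2 fold changes between -0.39 and 0.62.

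**Figure D5:**
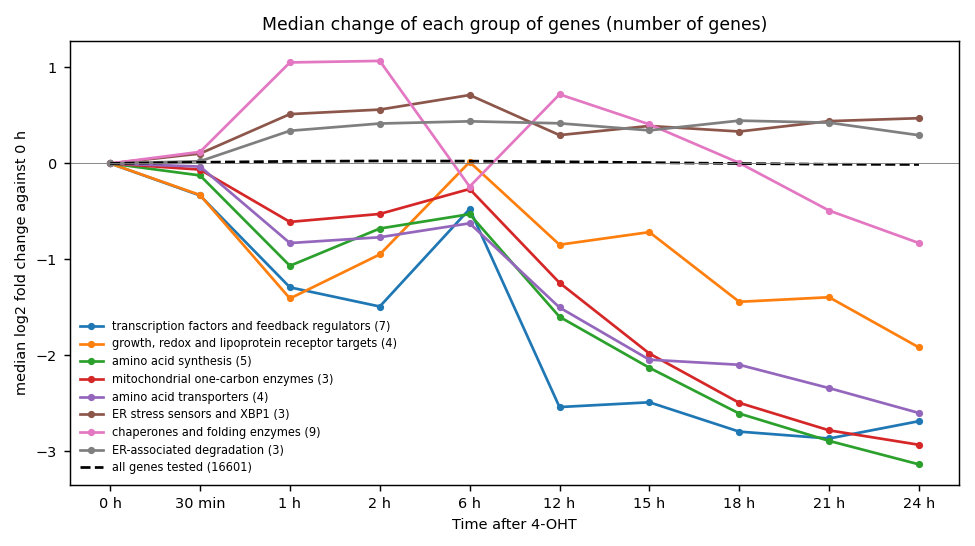
Median log2 fold change against 0 h (vertical axis) of the genes of each role, with the number of genes in brackets, at each time after 4-OHT, and of all 16601 genes tested (dashed). The chaperone median is 1.05 at 1 h and -0.83 at 24 h, and the amino acid synthesis median is -1.07 at 1 h, -0.53 at 6 h and -3.13 at 24 h.

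Other genes of the same pathways were counted as well. Of 67 such genes with enough counts, 2 rose and 8 fell at 1 h (all genes 2.33% and 4.84%), and 7 rose and 28 fell at 24 h (all genes 20% and 20.1%). Among 16 partners and further targets of ATF4, 0 rose by edgeR at 1 h (0 also at an unadjusted p under 0.05), 5 fell at 1 h and 11 fell at 24 h. Of all 67, the 3 largest falls at 24 h were those of Jdp2, a bZIP repressor (-4.53 ± 0.16, adjusted p 7.01e-17), Slc7a3, a cationic amino acid carrier (-3.83), and Vegfa, a growth factor induced by ATF4 (-3.71). Of 13 cytosolic aminoacyl-tRNA synthetases, which charge tRNAs, 2 fell at 1 h, 0 at 6 h by edgeR and 11 at 24 h (all genes 4.84%, 9.13% and 20.1%). Their values at 24 h lay between -2.22 and -0.27. Without the fold threshold 8 of the 13 were lower and 1 higher at 6 h at an adjusted p under 0.01 (4526 and 4979 of all 16601 genes). The C/EBP-ATF response element stood in a window of 5 of the 8 synthetases for which one was found (62.5%). Of all windows, taken singly, 3.97% held it. The synthetases were listed by name as genes of the same pathways, so these shares do not test an enrichment. Among 21 genes of the ATF6 and XBP1 arms, 2 rose at 1 h, and 3 rose and 4 fell at 24 h, no larger shares at 24 h than those of all genes. The 3 largest rises at 24 h among all 67 were those of Ero1lb (2.90) and Txndc11 (2.79), both of disulfide chemistry in the ER, and Crebrf (2.16), a bZIP regulator. The other eIF2 kinases were at -2.09 for Eif2ak2 (PKR), 1.11 for Eif2ak4 (GCN2) and 0.69 for Eif2ak1 (HRI) at 24 h, of which the first fell and the second rose. Among 10 further degradation genes, 2 rose and 1 fell at 24 h, again no larger shares than over all genes.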

How the data were processed

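The authors sequenced chromatin-associated RNA, prepared with a directional, rRNA-depleted kit, aligned it to mm10 (GRCm38) with STAR in nf-core/rnaseq, and counted reads per gene, introns included, with featureCounts. The submitters' processing notes name CASAVA 2.17 as well. They deposited the raw counts of all 20 libraries in one table. The annotation release and the strand setting of the counting are not given in the sources used here, and 55154 of 56239 identifiers were in GENCODE M21, used for names and positions. All columns were used.

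Genes that reached 10 of these counts in 2 or more libraries were tested, TMM factors were computed, and one quasi-likelihood model with time point as a factor was fitted over all 20 libraries with edgeR 4.0.16 (R 4.3.3), without a replicate term. Each time point was compared with 0 h, and 6 h with 1 h, 12 h and 24 h. A call needed a Benjamini-Hochberg adjusted p under 0.01, over all genes tested, and a fold change over 2. Levels are CPM, counts scaled to TMM-adjusted library totals, and SEs are the log2 fold change divided by the square root of F. Intervals of count ratios cover counting error only. On simulated data for 2 h against 0 h with 15985 genes, 200 of them changed, the test called 99 of 100 genes changed by 1.5 on the log2 scale and 100 of 100 changed by 2.5, and 0 unchanged genes. The changed genes were drawn only from well-counted genes, so this does not cover genes as scarce as Nupr1 and Vldlr. Alternatives were DESeq2 1.42.0, other scalings, filters and thresholds, a replicate block, and leaving out each library. The genes and gene lists were chosen with earlier results of these data known. Full statistics were given for Atf4, Ddit3, Atf3, Asns, Xbp1 and Hspa5, and for the 3 largest called rises and falls among the 38 genes at 2 h and at 24 h, with the 3 largest in each direction at 24 h named among other pathway genes. Depth differed by less than 1.5-fold between libraries.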

Additional observations from a re-analysis of the deposited data

How the results depend on the processing

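Among the 38 genes, the numbers called at each time point stayed within 1.5-fold under DESeq2, other scalings, no filter and an adjusted p under 0.05. The call at 30 min, 1 gene, became 0 with a filter of 10 counts in every library, which drops Dnajc12, and ranged from 0 to 1 when single libraries were left out. Without the fold threshold the numbers were 10 (30 min), 34 (1 h), 37 (2 h), 31 (6 h), 34 (12 h), 32 (15 h), 31 (18 h), 32 (21 h), 30 (24 h against 6 h), 31 (6 h against 1 h) and 30 (12 h against 6 h). Among all 16601 genes tested, adjusted p alone gave 614 higher with 787 lower (30 min), then 3185 with 2838 (1 h). Later it gave 3967 with 3956 (2 h), 4979 with 4526 (6 h), then 5919 with 5970 (21 h). Leaving out single libraries gave 15 to 17 genes at 1 h, 3 to 4 at 6 h, 19 to 23 at 24 h and 13 to 18 for 12 h against 6 h.

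Library totals in place of TMM factors moved the median of all genes by -0.125 at 18 h, -0.232 at 21 h, -0.257 at 24 h and -0.264 for 24 h against 6 h, and 25 of the 38 genes were then called at 24 h in place of 23. Of all genes called, the share that was higher went from 51% with TMM to 39.6% at 21 h, from 50% to 37.9% at 24 h and from 46.1% to 29.8% for 24 h against 6 h. It brought Atf4 at 21 h (-1.12) and 24 h, Mthfd2 at 1 h (-1.004) and Pdia6 at 24 h past 2-fold. DESeq2 lost Nupr1 at 1 h (adjusted p 0.0158) and Vldlr at 1 h (0.0456), beside the calls named above. Leaving out replicate 1 of 0 h or of 1 h lost Vldlr at 1 h (0.0231 and 0.0226), and leaving out replicate 2 of 0 h or replicate 1 of 12 h lost Dnajc12 at 12 h (0.0195 and 0.0103). Mthfd2 at 1 h passed 2-fold without replicate 1 of 1 h (-1.03), and Aldh1l2 at 12 h without replicate 1 of 12 h (1.05). For genes as scarce as Nupr1, Vldlr and Dnajc12, depth limits what can be called.

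None of the values that turned sign was called in either setting. Aldh1l2 at 24 h was 0.0086 with DESeq2 size factors, 0.0022 with the filter in every library and 0.0093 with DESeq2, and -0.0994 to 0.0906 with single libraries left out. Slc7a11 at 30 min was 0.000941 with library totals and -0.0304 to 0.017 with libraries left out, and Slc7a1 at 30 min was -0.0057 without a filter. With libraries left out, Nupr1 at 6 h ranged from -0.0751 to 0.277, Ppp1r15a from -0.0052 to 0.110 at 12 h and -0.202 to 0.0645 at 24 h, Vldlr at 12 h from -0.722 to 0.175 and Xbp1 at 6 h from -0.0884 to 0.0694. The cause was not tested.

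The replicate numbers were not taken as pairs: over 45 pairs of time points and 10472 genes, libraries with one number deviated from their time points with a mean correlation of 0.00613 (-0.558 to 0.327). A fit with the replicate block called the same numbers, among them 16 at 1 h, 23 at 24 h and 30 over the course, and changed no call of a single gene.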

Other observations

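Of 11 listed heat shock genes of the cytosol and mitochondria, which fold protein outside the ER, 9 had enough counts and were set beside the ER chaperones. At 1 h and at 2 h 0 rose by edgeR (0 also at an unadjusted p under 0.05), where 2.33% and 6.25% of all genes rose. At 24 h 4 fell, against 20.1% of all genes. Of these 4, Hspa8 and Hsp90aa1, both cytosolic chaperones, fell 2.11-fold and 2.94-fold. The other falls were of the mitochondrial chaperonin Hspd1 and its partner Hspe1, by 9.21-fold and 5.35-fold. Hspa1b, which shares reads with its near-identical neighbour Hspa1a and is therefore uncertain, was at -1.07 at 1 h and 1.28 at 24 h on the log2 scale.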
